A study of Mus musculus with 24 samples.

Results

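The nuclear genes for the subunits of the respiratory chain and ATP synthase were followed in mouse liver after MitoCDNB, a chlorodinitrobenzene carried into mitochondria by an attached triphenylphosphonium cation. Members were taken by symbol: the Nduf subunits of complex I, Sdha to Sdhd of complex II, the Uqcr genes and Cyc1 of complex III, Cycs, the Cox4 to Cox8 families of complex IV, and the Atp5 genes of complex V. The rule found 86 of the 24421 genes in the table, and 81 of them had enough counts for a test (81 of 13833 genes tested). They comprised 37 genes of complex I, 4 of complex II, 9 of complex III, cytochrome c, 18 of complex IV (13 tested) and 17 with the Atp5 prefix. Of the last, Atp5s and Atp5sl carry the prefix without being ATP synthase subunits. Values for complex V below leave them out, and they are described by name. Ndufab1, Usmg5, Atpif1 and 2010107E04Rik, in the table under names outside the rule, are not counted, and transcripts of the mitochondrial genome are not analysed here.

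The samples were medial liver lobes of C57BL/6 mice, with the age and sex not given in the labels. There were 4 groups of 6 mice: vehicle with 0.1% ethanol at 1 h, MitoCDNB at 5 mg/kg at 1 h, and the same pair at 4 h. By their titles the 4 h libraries were numbered 1 to 12 and the 1 h libraries 13 to 24. A change between the times therefore cannot be told apart from a difference between these sets of libraries. Each library held 25132737 to 37231025 counts of polyadenylated RNA, of which the members took 0.674% to 1.06%. The libraries had the transcripts of hepatocytes (7 of 7 markers tested, summed level 36291 to 60054 CPM, the counts-per-million scale on normalised library sizes). The summed level of 7 muscle markers was at most 0.217 CPM, and 1 library had any count of the brown fat marker Ucp1. The 3 brown fat markers summed to 36.4 to 243 CPM, nearly all of it Elovl3 (36.3 to 243 CPM). The 8 brain markers, 5 of them tested, summed to 69.8 to 109.7 CPM, most of it Slc1a2 (62.0 to 103 CPM). Of these, the neuronal Snap25 had no count in 18 libraries and 12 to 39 counts in replicates 4 to 6 of both 1 h groups. Major urinary protein genes took 11.1% to 36.4% of the counts of a library.

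Complexes I and II pass electrons from NADH and succinate to ubiquinone, complex III passes them to cytochrome c, and complex IV to oxygen. Complexes I, III and IV pump protons, and complex V, the ATP synthase, uses the gradient to make ATP. Every complex but complex II also holds subunits coded in the mitochondrial DNA, so the nuclear genes described here supply one side of a joint assembly. NRF1 (nuclear respiratory factor), the ETS factor GABP (also called NRF2), YY1, the estrogen-related receptors (ERR) and CREB are known regulators of these genes.

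RefSeq promoter windows (GRCm38.p6), the 250 bases before a start site, were on hand for 67 of the 86 members. The 3 printed below belong to Cox6a1, whose level per kilobase was the highest of all members, and to Cycs and Ndufa8, which were higher at 4 h than at 1 h in the MitoCDNB groups. They are written 5′ to 3′ on the strand of the gene, with the letters of a searched motif in capitals. The Cox6a1 window (chr5:115348959-115349208, minus strand) holds the NRF1 letters at position -162 and the ETS letters, read on the other strand, at -16. The Cycs window (chr6:50566570-50566819, minus strand) holds the CRE letters of CREB at -169. The Ndufa8 window (chr2:36049339-36049588, minus strand) holds no exact match to any of the 5 motifs.
Cox6a1: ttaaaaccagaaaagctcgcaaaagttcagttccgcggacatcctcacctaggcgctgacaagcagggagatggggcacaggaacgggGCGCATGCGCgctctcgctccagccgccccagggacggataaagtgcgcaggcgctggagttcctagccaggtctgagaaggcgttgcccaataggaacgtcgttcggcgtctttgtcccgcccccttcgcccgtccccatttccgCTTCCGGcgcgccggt
Cycs: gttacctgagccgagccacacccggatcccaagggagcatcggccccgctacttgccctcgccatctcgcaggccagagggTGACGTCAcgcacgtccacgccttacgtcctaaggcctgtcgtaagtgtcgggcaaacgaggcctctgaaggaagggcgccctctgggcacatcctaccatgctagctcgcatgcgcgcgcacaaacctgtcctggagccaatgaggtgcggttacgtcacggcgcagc
Ndufa8: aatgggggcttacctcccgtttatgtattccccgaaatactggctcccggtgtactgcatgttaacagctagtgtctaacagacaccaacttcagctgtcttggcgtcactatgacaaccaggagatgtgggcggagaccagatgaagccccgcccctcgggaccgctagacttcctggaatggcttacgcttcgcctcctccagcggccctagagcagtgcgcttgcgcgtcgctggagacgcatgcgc

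Over all 67 members with a window, both strands were searched for 5 strings. The NRF1 string, the palindrome of GCGCA and its reverse complement, stood in 4 members (5.97%; Atp5g2, Ndufa11, Atp5k and Cox6a1), against 1.798% of the 10343 tested genes that have a window. The ETS string CCGGAAG was in 12 members (17.9% against 14.8%), and the CRE string TGACGTCA in 5 (7.46% against 2.94%). The ERR string TCAAGGTCA was in 1 member, Atp5g3 (1.49% against 0.358%), and the YY1 string AAGATGGC in 1, Atp5j (1.49% against 2.34%). These are matches of letters in these windows and were not tested.

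In liver the members ran over a wide range of levels, compared between genes as CPM per kilobase of transcript (mean ± SD over the 24 libraries). Cox6a1, the liver form of a complex IV subunit, was highest at 547 ± 55.5. Atp5b, the catalytic beta subunit of ATP synthase, followed with 413 ± 20.2 and Cox4i1, a regulatory subunit of complex IV, with 321 ± 21. Ndufa4 (287 ± 33.3) was the highest of those the rule placed in complex I, although its protein is now known to sit with complex IV. At the low end were Cox6b2 at 0.424 ± 0.185 and Ndufa4l2 at 1.22 ± 0.342.

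The median subunit of complex III stood at 147 ± 16.5 CPM per kilobase, of complex V at 132 ± 13.5 and of complex IV at 125 ± 13.7 (SD over 24 libraries). The ranges of these 3 over the 24 libraries overlapped (102 to 182 for complex III, 93.4 to 159 for complex V and 92.0 to 152 for complex IV). Their order within each library was not compared. The median subunit of complex II was lower at 87.4 ± 6.46, and that of complex I lower again at 61.7 ± 4.63. Cycs, at 42.8 ± 4.94, was counted over a transcript of 3123 bases. With the median length of each gene's coding transcripts in place of the principal one, 10 members had lengths over 1.5 times apart. The medians over members then ran in the same order, from 173 for complex III to 66.0 for complex I and 42.8 for Cycs. Uqcrq moved most, from 152 to 460, and would then lead complex III in place of Uqcr11 (198 ± 20.3).

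**Figure D1:**
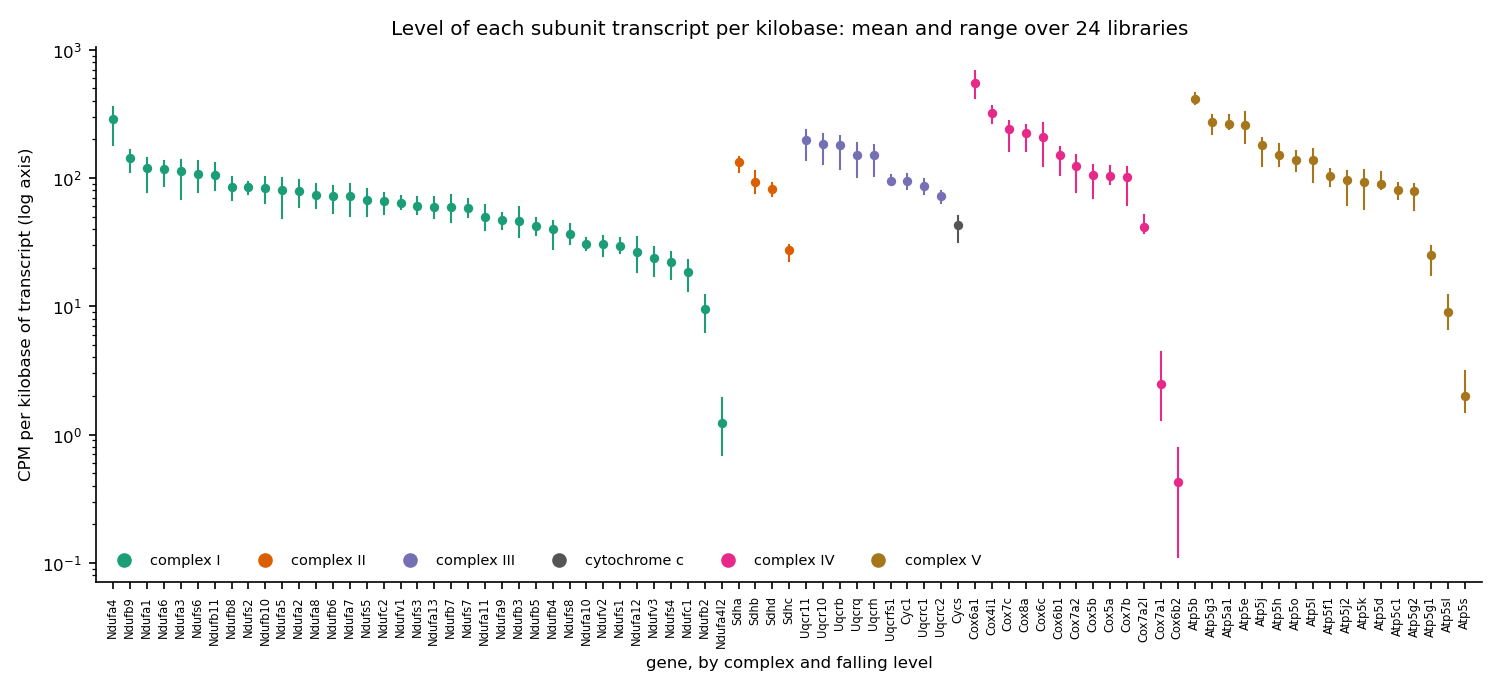
Level of the 81 tested members as CPM per kilobase of transcript (log axis), grouped by complex and ordered by level. Points are means and lines the range over 24 libraries. Cox6a1 sits highest at 547 and Cox6b2 lowest at 0.424.

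Where a subunit has forms for different tissues, the liver libraries held almost only one of them. Cox6a1 had 226719 counts in all and its heart and muscle form Cox6a2 had 15. Cox8a had 89210 counts against 12 for the muscle form Cox8b, and Cox4i1 had 177823 against 60 for Cox4i2, the form linked to low oxygen and the lung. Cox8c and Cox7b2 had no count in any library, and these 5 sparse complex IV genes are the ones that were not tested. Per kilobase, Ndufa4 was 235 times Ndufa4l2, a hypoxia-inducible relative, Cox6b1 was 354 times the testis form Cox6b2, and Cox7a2 was 49.7 times the muscle form Cox7a1. Processed pseudogenes of these genes, and related copies, may share reads with them, since how such reads were counted is not given in the sources used here.

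Atp5g1, Atp5g2 and Atp5g3 code for the same mature c subunit of the ATP synthase rotor ring. Atp5g3 made up 72.3% ± 1.32 of their summed level per kilobase, Atp5g2 20.99% ± 1.11 and Atp5g1 6.69% ± 0.432 (SD, n = 24 libraries). The share of Atp5g3 ran from 71.5% ± 1.04 to 73.4% ± 1.29 in the 4 groups, within the spread between libraries. The Atp5g1 model used is 4715 bases long, and a shorter one would raise its share.

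At 1 h, none of the 81 tested members passed the test between MitoCDNB and vehicle. The summed level of complex I was 2174 ± 135 CPM after MitoCDNB and 2141 ± 70.5 after vehicle (SD, n = 6). Complex II stood at 670 ± 21.3 against 678 ± 37.8, and complex III at 1135 ± 59.5 against 1105 ± 39.2. Complex IV stood at 1450 ± 105 against 1420 ± 66.7, and complex V at 2811 ± 142 against 2828 ± 77.3. In every complex the groups overlapped. The edgeR p values below rest on the spread between mice within groups of 6, pooled over all 4 groups and with information shared across genes. Fewer cells of a type and less RNA per cell cannot be told apart in such bulk samples.

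The fit of edgeR called 0 members at an adjusted p under 0.05, with 0 at an unadjusted p under 0.05, whereas 6.57% of all genes tested were called (17.7% unadjusted). DESeq2 and limma-voom also called 0. The median log2 fold change of the members was 0.013, beside 0.0025 for all genes. By complex the median ran from -0.021 (complex II) to 0.042 (complex IV).

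The 95% intervals of the fit give the size of change that these data allow. At 1 h, 73 of 81 members had an interval inside 0.32 log2 units either way and 78 inside a 1.5-fold change. The 3 with wider intervals, Ndufa4l2, Cox6b2 and Cox7a1, are the sparse isoforms. Over members the median half-width was 0.17 log2 units, beside 0.25 for all genes tested.

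The smallest p of each complex at 1 h shows the scale. For complex I it was Ndufs4, an accessory subunit at the NADH end, with 32.9 to 38.4 CPM after vehicle and 36.9 to 41.8 after MitoCDNB (log2 fold change 0.11 ± 0.077 SE, edgeR adjusted p = 0.528). Sdhd, a membrane anchor of complex II, differed by 0.055 ± 0.060 (adjusted p = 0.74). Uqcrq, a small subunit of complex III, differed by 0.11 ± 0.093 (edgeR adjusted p = 0.61) and Cox7a2 by 0.13 ± 0.10 (adjusted p = 0.61). Atp5d, the delta subunit of ATP synthase, differed by 0.064 ± 0.062 (edgeR adjusted p = 0.69). Cycs differed by 0.0040 ± 0.084. All groups of these members overlapped.

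Within the 1 h replicates 1 to 3 alone the members' median was 0.080, and within replicates 4 to 6, the libraries with Snap25 counts, it was -0.050. Neither set gave a call. The sign of the median differed between these sets, and the part of other tissue in them was not tested.

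At 4 h, 0 of 81 members were called between MitoCDNB and vehicle in edgeR, beside 0.824% of all genes tested, and 0 in DESeq2 and limma-voom. The number of all genes called was 114 in edgeR, 348 in DESeq2 and 224 in limma-voom. In edgeR it ran from 63 to 412 when 1 library was left out, highest without replicate 1 of vehicle. At an unadjusted p under 0.05 in edgeR there were 2 members (14.3% of all genes). One was Ndufs7, an iron-sulfur subunit near the ubiquinone site of complex I, at 0.13 ± 0.058 SE (adjusted p = 0.31). The other was Atp5sl, now named Dmac2 and known as a factor in the assembly of complex I, at 0.26 ± 0.081 (adjusted p = 0.11). Atp5sl ran from 19.7 to 25.9 CPM (median 21.5) after vehicle and from 23.5 to 29.5 (median 27.3) after MitoCDNB. Those ranges overlapped.

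Complex I stood at 2221 ± 149 CPM after MitoCDNB and 2180 ± 277 after vehicle at 4 h, and complex II at 701 ± 48.2 against 672 ± 50.3. Complex III stood at 1146 ± 73.2 against 1130 ± 130, complex IV at 1470 ± 97.0 against 1440 ± 210, and complex V at 2977 ± 174 against 2889 ± 256. The median log2 fold change was 0.029 over members and -0.0044 over all genes. By complex it ran from 0.014 (complex I) to 0.066 (complex II). Intervals of 72 of 81 members lay inside 0.32 log2 units and 78 inside 1.5-fold.

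The 4 genes of succinate dehydrogenase had overlapping groups throughout. Sdha, its catalytic flavoprotein, had medians of 399, 379, 390 and 403 CPM in the order vehicle then MitoCDNB, first the 1 h pair and then the 4 h pair. Sdhb, the iron-sulfur subunit, had medians of 106, 98.7, 105 and 114 CPM in the same order. The anchors Sdhc and Sdhd had 86.8, 88.3, 84.3 and 85.7 CPM, and 96.1, 100.2, 101 and 106 CPM. Sdhd had the smallest p of the 4 at 4 h (0.11 ± 0.060, adjusted p = 0.43).

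The abundant subunits of complexes IV and V had overlapping groups too. Cox6a1 had medians of 311, 298, 321 and 333 CPM in the same order of groups, and Cox4i1 of 239, 241, 247 and 258. Atp5b had medians of 791, 757, 797 and 814 CPM. At 4 h their log2 fold changes were 0.087 ± 0.083 (Cox6a1), 0.045 ± 0.062 (Cox4i1) and 0.046 ± 0.053 (Atp5b), with adjusted p from 0.700 to 0.808.

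The sparse isoforms left more room. Cox7a1, the muscle form, ran from 0.506 to 0.933 CPM after vehicle at 4 h (median 0.820) and from 0.747 to 1.26 after MitoCDNB (median 1.13). Its log2 fold change of 0.46 ± 0.24 had the smallest p of complex IV at 4 h and was not called (adjusted p = 0.380). Ndufa4l2 had medians of 0.847 and 1.10 CPM (0.17 ± 0.24) and Cox6b2 of 0.187 and 0.265 CPM (0.44 ± 0.40), again with overlapping groups.

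**Figure D2:**
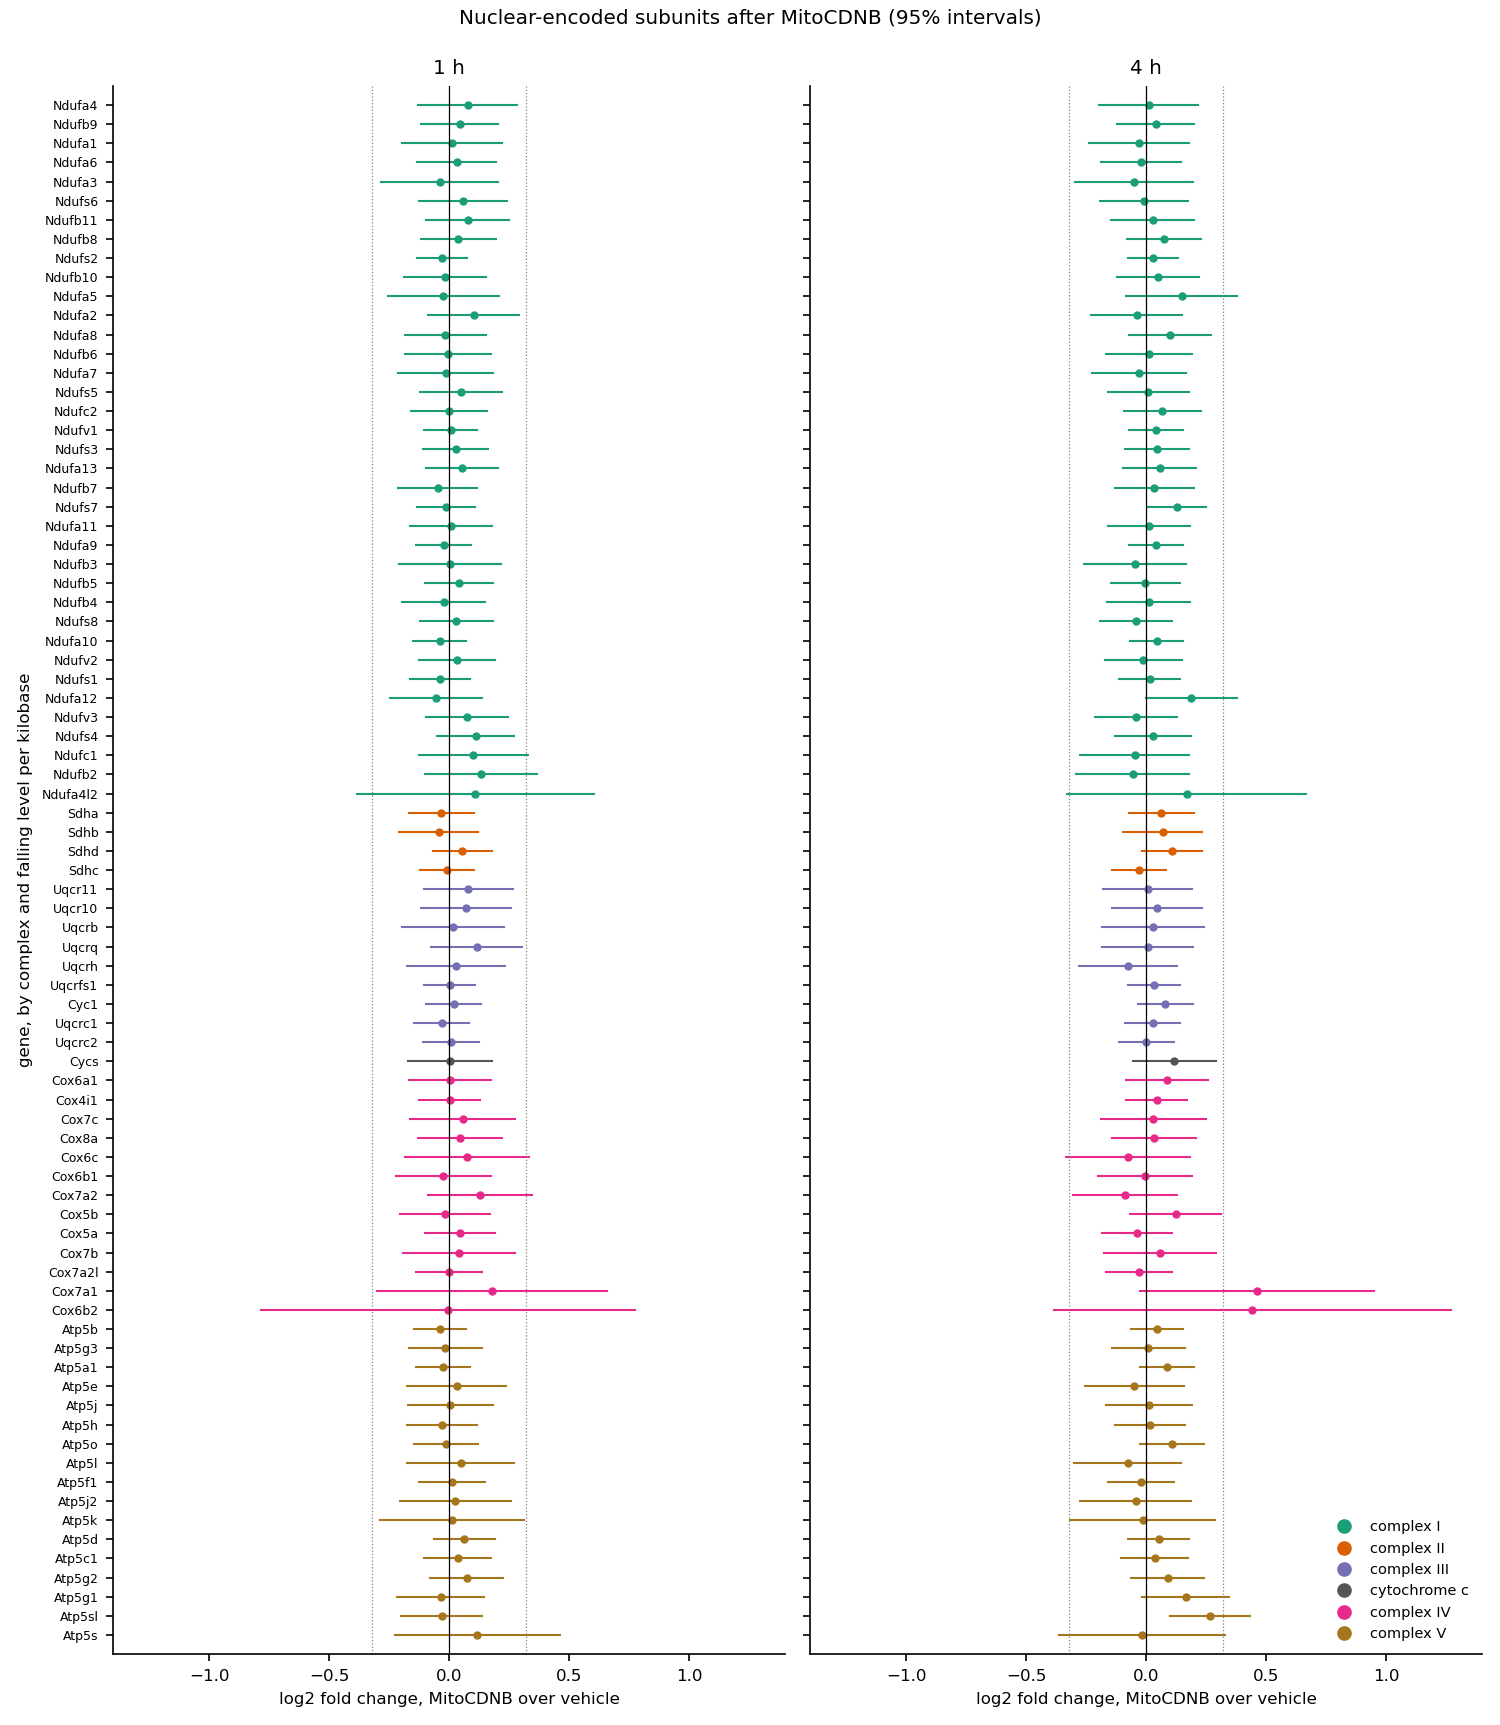
Log2 fold change of MitoCDNB over vehicle at 1 h (left) and 4 h (right) for the 81 tested members, coloured by complex. Points are edgeR estimates, bars 95% intervals, and dotted lines 0.32 log2 units either way. Intervals of 73 members at 1 h and 72 at 4 h lie between the dotted lines.

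No difference between the times in the effect of MitoCDNB on a member passed the test. The interaction of treatment and time called 0 of 81 members in edgeR, DESeq2 and limma-voom, beside 4.07% of all genes in edgeR. In edgeR, 1 member, Atp5sl, had an unadjusted p under 0.05 (16.9% of all genes). Its difference was 0.30 ± 0.11 SE (adjusted p = 0.17). The widths allow less here: intervals of 48 members lay inside 0.32 log2 units and 77 inside 1.5-fold.

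The share of each complex in the members' summed level varied little between libraries. Complex I took 25.8% ± 0.332 of summed CPM (SD over 24 libraries), complex II 8.07% ± 0.296, complex III 13.4% ± 0.188, complex IV 17.1% ± 0.447 and complex V 34.1% ± 0.621. Cycs took 1.58% ± 0.123, with group means of 1.506% and 1.496% at 1 h and of 1.61% and 1.71% at 4 h (vehicle, then MitoCDNB). Group means of complex I lay between 25.6% and 26.0%, and those of complex V between 33.6% and 34.4%.

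**Figure D3:**
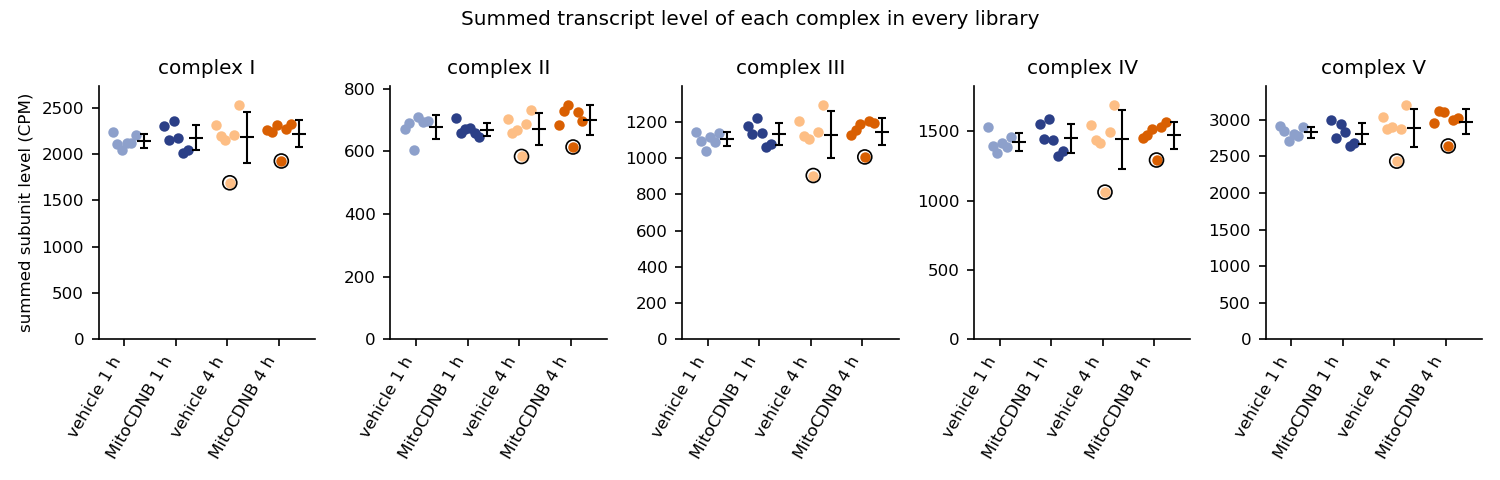
Summed CPM of the subunit genes of complexes I to V in every library, with the mean and SD of each group of 6 beside the points. Circles mark replicate 4 of both 4 h groups, the lowest library of its group in each panel. In each complex the 4 groups overlap.

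Between 1 h and 4 h, the vehicle groups gave 0 called members in edgeR, DESeq2 and limma-voom, beside 5.44% of all genes in edgeR. In edgeR, 1 member had an unadjusted p under 0.05, Atp5sl again (0.23 ± 0.081 SE, adjusted p = 0.10), against 19.6% of all genes. It was called when replicate 4 of vehicle at 1 h was left out (0.28, adjusted p = 0.038). The median of the members was 0.027, beside -0.0019 for all genes.

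In the MitoCDNB groups 6 of 81 members were higher at 4 h than at 1 h and none was lower, beside 28.5% of all genes called (15.1% called as higher). They were Atp5sl, the complex I subunits Ndufa8, Ndufa12 and Ndufs7, Cycs, and Atp5a1, the alpha subunit of the ATP synthase head. No member of complexes II, III or IV was called in the main edgeR fit. DESeq2 and limma-voom called the same 6 members and also Uqcrc1 and Cyc1 of complex III as higher. The adjusted p of Uqcrc1 was 0.026 in DESeq2 and 0.022 in limma-voom, and that of Cyc1 0.029 and 0.015. DESeq2 called Atp5b as well (adjusted p = 0.042). At an unadjusted p under 0.05 in edgeR, 9 members were higher and 1 lower (39.0% of all genes either way). The median over members was 0.025, and -0.0096 over all genes. Time and the run of library numbers cannot be told apart in this comparison.

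Atp5sl lies at chr7:25619414-25625551. It ran from 16 to 20.1 CPM (median 19.01) after MitoCDNB at 1 h and from 23.5 to 29.5 (median 27.3) at 4 h. The groups did not overlap. The log2 fold change was 0.52 ± 0.081 SE, a rise of 43.8% (95% interval 28.1% to 61.4%; adjusted p = 3.2e-05).

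Ndufs7 (chr10:80249121-80256794) was the other called member whose groups stood apart, although by little. How many of all genes had groups apart in this comparison was not counted. It ran from 53.2 to 57.6 CPM (median 55.3) at 1 h and from 59.5 to 63.8 (median 62.3) at 4 h, a log2 fold change of 0.16 ± 0.059 (adjusted p = 0.047). In vehicle at 4 h it ran from 49.1 to 67.0 CPM, a wider range than in either MitoCDNB group.

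Ndufa8 (chr2:36036326-36049406), an accessory subunit on the intermembrane side, ran from 51.8 to 66.4 CPM at 1 h and from 64.2 to 76.9 at 4 h (medians 56.5 and 68.4). Ndufa12 (chr10:94198720-94221443), an accessory subunit of the peripheral arm, ran from 24.03 to 30.4 CPM and from 29.2 to 38.8 (medians 27.5 and 32.1). Both pairs of groups overlapped at their edges. The log2 fold changes were 0.25 ± 0.082 (adjusted p = 0.024) and 0.26 ± 0.093 (adjusted p = 0.040).

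Cycs (chr6:50562563-50566538), the mobile electron carrier that also acts in apoptosis, ran from 106 to 146 CPM at 1 h and from 134 to 157 at 4 h (medians 125 and 150). In vehicle its medians were 123 CPM at 1 h and 143 at 4 h. Atp5a1 ran from 595 to 649 CPM and from 632 to 765 (medians 618 and 673). Their log2 fold changes were 0.24 ± 0.084 (adjusted p = 0.035) and 0.15 ± 0.055 (adjusted p = 0.039).

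For these 6 members the change over time in vehicle was 0.23 for Atp5sl, 0.14 for Ndufa8, 0.12 for Cycs, 0.042 for Atp5a1, 0.015 for Ndufa12 and 0.016 for Ndufs7. For none of the 6 did the difference between MitoCDNB and vehicle in this change pass the test (interaction, adjusted p from 0.17 to 0.70). In edgeR, the genes with the smallest p in complexes II, III and IV were Sdhb (0.14 ± 0.080, adjusted p = 0.21), Uqcrc1 (0.14 ± 0.056, adjusted p = 0.057) and Cox7a2 (-0.22 ± 0.10, adjusted p = 0.12). Cyc1, the heme subunit of complex III, stood at 0.14 ± 0.056 (edgeR adjusted p = 0.064). Beside this comparison, the summed level of 3 neutrophil markers was 6.43 to 10.4 CPM in MitoCDNB at 1 h and 0.413 to 1.35 at 4 h, and its part in the result was not tested.

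The calls other than Atp5sl depended on single libraries. Without replicate 2, 4 or 5 of MitoCDNB at 1 h there were 2 called members, without replicate 3 there were 3, and without replicate 6 there was 1. Without replicate 3 or 5 of MitoCDNB at 4 h there were 2, and without replicate 4 there were 10. With only replicates 1 to 3 of the 1 h groups 1 member was called, and with only replicates 4 to 6 there were 3. Atp5sl was called in all 12 fits that left out 1 library and in the 15 other alternatives, with an adjusted p of at most 0.0064.

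**Figure D4:**
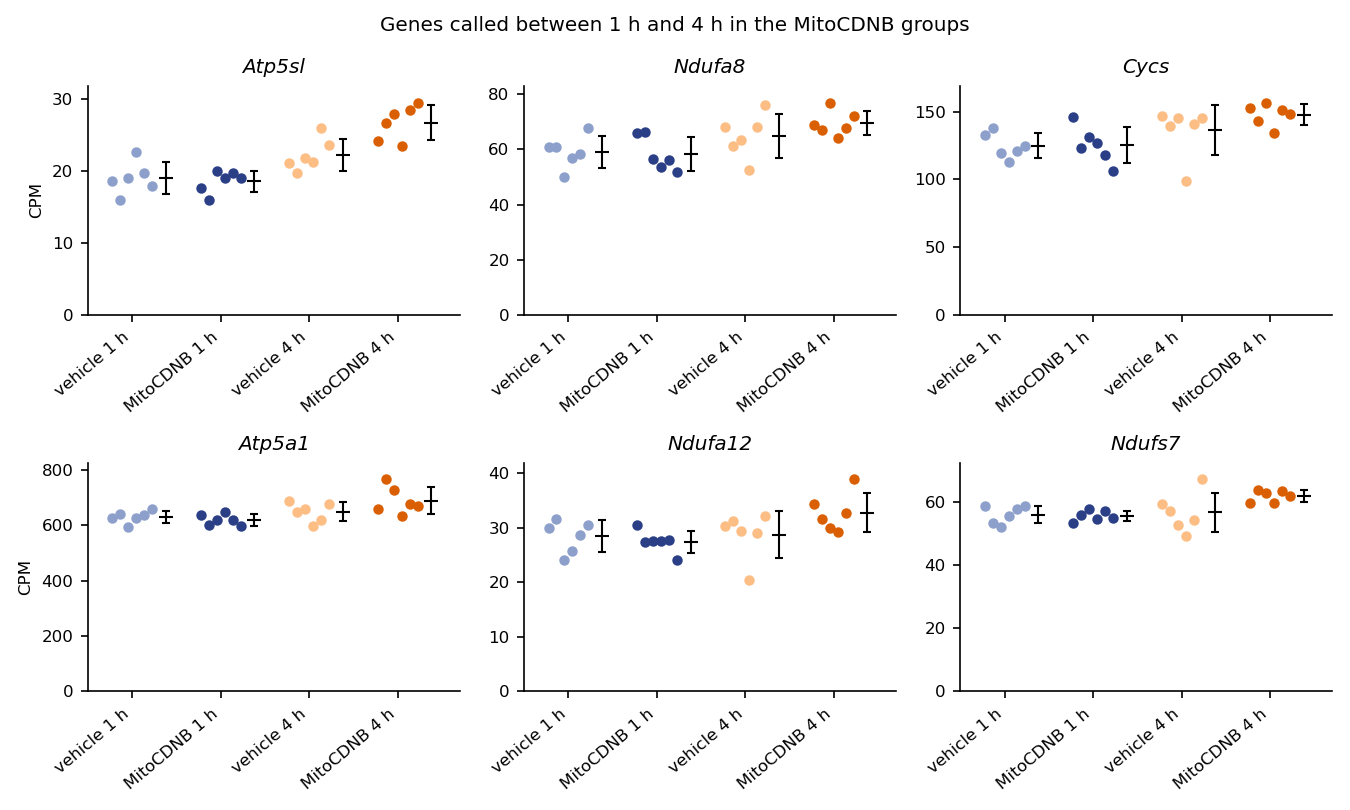
CPM of the 6 members called between 1 h and 4 h in the MitoCDNB groups, in every library, with the mean and SD of each group of 6. Atp5sl runs from 16 to 20.1 after MitoCDNB at 1 h and from 23.5 to 29.5 at 4 h. Of the 6, Atp5sl and Ndufs7 have MitoCDNB groups that do not overlap. The share of all genes with such groups was not counted.

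Single libraries stood apart from their group in most members at once. As the median over 79 members (without Atp5s and Atp5sl) of the deviation from the group mean in log2 CPM, replicate 4 of vehicle at 4 h stood at -0.40, with 79 of 79 members below the mean. Replicate 4 of MitoCDNB at 4 h stood at -0.21, with 78 of 79 below. Replicate 6 of vehicle at 4 h stood at 0.24. All other libraries lay between -0.10 and 0.11.

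Every complex was low in those replicates 4. In the vehicle library the deviation was -0.40 for complex I, -0.18 for complex II, -0.49 for complex III, -0.53 for complex IV and -0.32 for complex V. In the MitoCDNB library the complexes lay between -0.20 and -0.22. Leaving out both replicates 4, a choice made after seeing the data, gave 15 of 81 called members between 1 h and 4 h in the MitoCDNB groups, all higher at 4 h, beside 3596 of 13873 genes called under the same setting. It gave 0 in the comparison of the treatments at 4 h, in the interaction and between the vehicle groups.

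Genes outside the respiratory chain moved with these libraries. In replicate 4 of vehicle at 4 h, 123 other genes with transcripts of at most 865 bases, the members' median length, stood at -0.33 and 90 ribosomal protein genes at -0.30. In the same library 2317 other genes with longer transcripts stood at -0.092 and all genes at -0.0077. The sets split by length hold only genes above the lower end of the members' levels. Ribosomal protein genes were not left out of them, so the sets can share genes. In replicate 4 of MitoCDNB at 4 h the short genes stood at -0.15, the ribosomal protein genes at -0.14 and the long genes at -0.040. The part of transcript length, RNA quality or library preparation in these values was not tested.

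**Figure D5:**
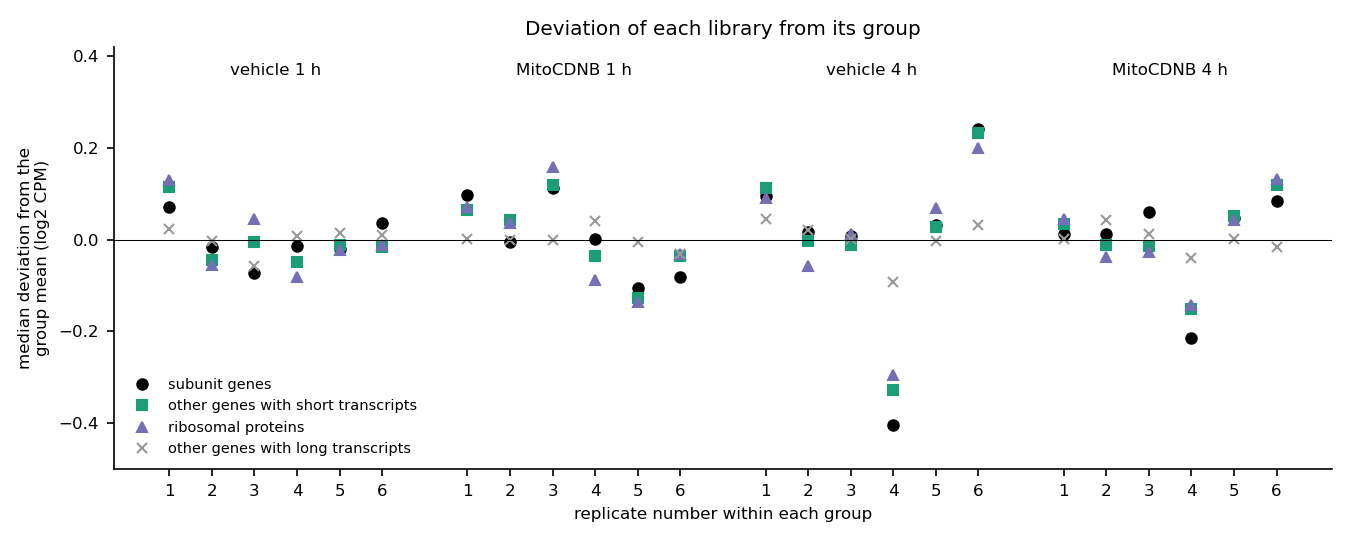
Median deviation of each library from its group mean (log2 CPM) for 79 members, other genes with short transcripts, ribosomal protein genes and other genes with long transcripts, by replicate number. The sets of short and long genes can hold ribosomal protein genes. Replicate 4 of both 4 h groups lies lowest for the members (-0.40 and -0.21) and replicate 6 of vehicle at 4 h highest (0.24), and the short genes lie near the members.

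The within-group SD of a member was 0.145 log2 units at the median. It was 0.214 over all genes tested and 0.142 over the 4289 genes of at least 20 CPM. It differed by length, at 0.164 for the 40 members with shorter transcripts and 0.111 for the 39 with longer ones. Over the 76 members of at least 20 CPM, the SD and the transcript length had a Spearman rho of -0.54 across genes, which share the same libraries. Complex II varied least (0.0988) and complex IV most (0.177).

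The deviations of 2 members ran together across the 24 libraries, with a median Pearson r of 0.73 over 3081 pairs. The median r was 0.73 for pairs within complex I, 0.45 within complex II, 0.68 within complex III, 0.66 within complex IV and 0.80 within complex V. Pairs from different complexes had 0.72. Without replicate 4 of both 4 h groups the median over all pairs was 0.51. These correlations describe genes that share libraries and depth, and no test was made.

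Assembly factors build the complexes without staying in them. Of 49 listed factors 48 were tested. The list takes in Atpif1, which is an inhibitor of ATP synthase rather than an assembly factor, and leaves out Atp5sl. At 1 h, 2 were lower after MitoCDNB: Foxred1, a complex I factor (-0.32 ± 0.077 SE, adjusted p = 0.0092), and Cox20, a chaperone of a core complex IV subunit (-0.27 ± 0.075, adjusted p = 0.028). That is 2 of 48, beside the 6.57% of all genes, and the median of the 48 was -0.034. The 3 neutrophil markers summed to 1.58 to 5.28 CPM in vehicle and 6.43 to 10.4 in MitoCDNB at 1 h, and their part in the result was not tested. Within the 1 h replicates 1 to 3 neither was called, and within replicates 4 to 6 there was 1 call. At 4 h none of the 48 was called in edgeR, DESeq2 or limma-voom, beside 0.824% of all genes called in edgeR. In edgeR 7 of 48 had an unadjusted p under 0.05, beside 14.3% of all genes, and the median was 0.023. Without replicate 1 of vehicle at 4 h there was 1 call. The interaction called 2 as higher, Tmem186 of complex I assembly (0.63 ± 0.17, adjusted p = 0.031) and Cox20 (0.40 ± 0.11, adjusted p = 0.030), that is 2 of 48 beside 4.07% of all genes. The count at 1 h was 1 without replicate 3 or 6 of vehicle or replicate 3 or 4 of MitoCDNB. That of the interaction was 0 without replicate 4 of MitoCDNB at 1 h or 5 of MitoCDNB at 4 h, 4 without replicate 2 of MitoCDNB at 4 h, and 1 without replicate 1, 3, 4 or 6 of vehicle at 1 h, replicate 2, 3, 5 or 6 of MitoCDNB at 1 h, or replicate 1 or 3 of MitoCDNB at 4 h. On library totals without TMM scaling both counts were 0.

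Over time 5 of the 48 factors were higher at 4 h than at 1 h in vehicle and none lower, beside 5.44% of all genes called. They included Ndufaf4, a complex I factor (0.47 ± 0.10, adjusted p = 0.0077), Cox10, which makes a heme A precursor for complex IV (0.42 ± 0.098, adjusted p = 0.011), Cox11, which helps bring copper to complex IV (0.26 ± 0.059, adjusted p = 0.011), and Sdhaf1, of complex II (0.41 ± 0.12, adjusted p = 0.040), which lost the call in 14 of 27 alternatives. In MitoCDNB, 12 of 48 were higher and 1 lower (Timmdc1, -0.22, named after its value was seen), beside 28.5% of all genes called and 15.1% called as higher. Tmem186 rose by 1.03 ± 0.12 (adjusted p = 7.5e-07), followed by Cox10 (0.87 ± 0.098), Ndufaf4 (0.72 ± 0.10) and Foxred1 (0.52 ± 0.077). With only replicates 1 to 3 of the 1 h groups these counts were 0 in vehicle and 8 in MitoCDNB, and with only replicates 4 to 6 they were 1 and 8. The count in vehicle was 3 without replicate 1 or 5 of the 1 h group or replicate 3, 5 or 6 of the 4 h group, and on library totals the counts were 0 and 6.

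Of 15 regulators of mitochondrial genes, 0 were called in edgeR for MitoCDNB against vehicle at either time. At an unadjusted p under 0.05 there were 2 at 1 h and 2 at 4 h (17.7% and 14.3% of all genes). DESeq2 and limma-voom each called 0 at 1 h and 1 at 4 h, as did edgeR at 4 h without replicate 2 of MitoCDNB. Esrra, an estrogen-related receptor, had an interaction of 0.60 ± 0.15 (adjusted p = 0.026), not called without replicate 2 of MitoCDNB at 1 h or 3 of MitoCDNB at 4 h, within either set of 1 h replicates, or on library totals. It was higher at 4 h than at 1 h in both vehicle (0.53 ± 0.11, adjusted p = 0.0056) and MitoCDNB (1.12 ± 0.11, adjusted p = 7.1e-08). Its partner, the coactivator Ppargc1a, was lower at 4 h in vehicle (-0.92 ± 0.26, adjusted p = 0.042) and in MitoCDNB (-1.01 ± 0.26, adjusted p = 0.0050). Ppara, a receptor for fatty acids, was higher at 4 h in both (0.52 ± 0.14 and 0.58 ± 0.14), Esrrg was lower in vehicle (-1.50 ± 0.44, adjusted p = 0.043), and Polrmt, the mitochondrial RNA polymerase, was higher in MitoCDNB (0.46 ± 0.080, adjusted p = 1.3e-04). Esrrg in vehicle at 1 h ran from 0.207 to 2.48 CPM with a median of 0.711, and at 4 h from 0.200 to 0.469 with a median of 0.346. In vehicle, Ppargc1a lost the call in 17 of 27 alternatives, Esrrg in 17 of 26 and Ppara in 7 of 27. The count of regulators called over time was 4 of 15 in vehicle, beside 5.44% of all genes, and 4 of 15 in MitoCDNB, beside 28.5%. In vehicle it was 1 without replicate 1 at 4 h, 2 without replicate 2, 3, 5 or 6 at 1 h or any other replicate at 4 h, and 0 on library totals.

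Parts of the large complexes were also read apart. For the N module of complex I, which takes electrons from NADH, 7 subunits were listed: Ndufv1, Ndufv2, Ndufv3, Ndufs1, Ndufs4, Ndufs6 and Ndufa2. Of these 0 were called in any comparison, with medians of 0.057 at 1 h and -0.0077 at 4 h for MitoCDNB against vehicle. Ndufa12, called over time in MitoCDNB, is neither in this list nor in that of the Q module. In the Q module, which hands them to ubiquinone, 1 of 7 was called, Ndufs7 over time in MitoCDNB, and the medians were -0.011 and 0.029. The F1 part of ATP synthase (Atp5a1, Atp5b, Atp5c1, Atp5d and Atp5e) had medians of 0.033 and 0.046 over 5 genes. The c ring had medians of -0.016 and 0.089 over 3. The other stalk and membrane genes had 0.013 and -0.015 over 7 genes tested of 9 listed.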

How the data were processed

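RNA-seq counts of 24 mouse livers were analysed. The deposited values are raw counts by gene symbol. For the steps behind them the submitters' processing notes name CASAVA 1.8.4, Trim Galore, HISAT2, DESeq2 and mm10, without roles. Neither the counting tool nor its annotation, strand setting and treatment of multiply mapped reads is stated in the labels or notes, so counts of overlapping, antisense and near-identical genes are uncertain. Replicates are mice, per the labels' protocol.

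Genes were kept with filterByExpr of edgeR 4.0.16 (R 4.3.3; minimum count 10, minimum total 15), scaled by TMM and fitted over the 4 groups with the robust quasi-likelihood test. P values were adjusted by Benjamini-Hochberg over all 13833 genes, and a gene was called under 0.05. SEs and 95% intervals came from the fit. CPM use the TMM-scaled library sizes. Lengths are those of the principal coding transcripts of GENCODE vM21 (mm10), and coordinates are mm10. Alternatives used limma 3.58.1, DESeq2 1.42.0 and other settings. The fit was checked on simulated counts.

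The members, lists and tests were chosen with earlier results of these data known. The genes to be named were set by a rule. It takes all called members, the smallest p of each complex without a call, and the genes of complex II, cytochrome c and the isoforms. It also takes the highest and lowest member of each complex, and up to 4 called genes of each other list. Uqcrc2, the lowest of complex III at 72.4 ± 3.91 CPM per kilobase, is named only here. So is Cox7a2l, from the isoforms, at 41.8 ± 3.39. The smallest p of a complex is not printed for every comparison.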

Additional observations from a re-analysis of the deposited data

Results flagged for a closer look

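Within groups of 6, a value was singled out where its gap to the nearest library, as a share of the group's range, passed Dixon's 95% critical value. Of 152 groups of values, 22 were singled out. For a single group, chance gives about 1 in 20. The groups share libraries and the sums contain the genes, so the 22 cannot be set against that rate. Replicate 4 of MitoCDNB at 4 h was low in 8 of them, in CPM: complex I in sum (1925, next 2235), complex III (1007, next 1130), complex V (2644, next 2957), all complexes (7616, next 8627), Sdhc (71.4), Uqcr11 (76.0), Sdhb (87.9) and Ndufa4 (142). Replicate 4 of vehicle at 4 h was low for Ndufa12 (20.4, next 29.0), Sdha (324), Cox8a (89.3), Ndufa4 (109.8), Cycs (99.0, next 139) and Cox7a2 (51.4, next 79.4). Replicate 3 of vehicle at 1 h was low for Sdha (329.9), Cyc1 (124), Sdhb (98.0), Cox6a1 (240.4) and complex II in sum (605), and high for Cox7a1 (1.73). Replicate 6 of vehicle at 4 h was high for Sdhc (95.7), and replicate 6 of MitoCDNB at 1 h for Atp5s (4.96).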

How the results depend on the processing

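The count of called members was 0 under all alternatives run for MitoCDNB against vehicle at 1 h and 4 h and for the interaction. Between the vehicle groups it ran from 0 to 1 when single libraries were left out. Between the MitoCDNB groups, with 6 called, it ran from 1 to 10 when single libraries were left out. It was 11 with upper quartile scaling, 1 on library totals, 1 at an adjusted p under 0.01, 15 without replicate 4 of both 4 h groups, 1 with the 1 h replicates 1 to 3 only and 3 with 4 to 6 only. The last 3 settings were chosen after seeing the data. Fitting the replicate number as a block gave 5 called members between the MitoCDNB groups and 0 in the other comparisons. The block also called 1 regulator in each treatment comparison and 2, not 4, between the vehicle groups. Deviations of same-numbered samples correlated at -0.25 to 0.36, 5 of 12 pairs over 0.1, and 3 of 12 samples correlated best with their own number, so the numbers were not used as pairs.

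Some medians moved by more than the spread between libraries. For MitoCDNB against vehicle at 1 h library totals gave -0.066 over members, -0.063 for complex I, -0.099 for II, -0.057 for III and -0.077 for V, with all genes at -0.072. For the interaction they gave 0.17 over members, 0.16 for complex I, 0.23 for II, 0.15 for III, 0.18 for IV and 0.17 for V, with all genes at 0.15. Between the MitoCDNB groups they gave 0.13 for complex I and 0.17 for II, with all genes at 0.079. The 1 h replicates 1 to 3 gave 0.080 over members and 0.12 for complex III at 1 h, and -0.083 for complex III between the MitoCDNB groups. Replicates 4 to 6 gave -0.091 for complex II and -0.050 for complex III at 1 h, and 0.17 for complex II in the interaction. The causes were not tested. For the 6 called members, 55 of 162 alternatives lost the call (Ndufs7 16 of 27, Atp5a1 14, Ndufa12 11, Cycs 9, Ndufa8 5, Atp5sl 0). Over all 27 called results of named genes, 160 of 757 lost it, and 19 alternatives gave a call to a named gene that had none. None reversed. A fit of only the groups compared could not be run for the interaction. Depth limits Cox6b2, Cox7a1 and Ndufa4l2, whose intervals passed 1.5-fold.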
